A study of Homo sapiens with 36 samples.

Results

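The 9 genes described here, UNC5B, FUT1, NIBAN1, KIF21B, SYTL1, S100A2, IL21R, PIK3CG and APLN, were picked from 61544 genes in the authors' count table for large changes in the HBS1L line beyond the control line at 48 h or 96 h. They were found by matching Ensembl identifiers to these symbols, and all 9 were among the 20767 genes tested. The RNA libraries, made from polyadenylated RNA, came from MIA PaCa-2, an established line of human pancreatic cancer, and the series record names its question as the effect of losing PELO or HBS1L in lines with a destabilised SKI complex. All 36 were from cells holding Cas9 under a doxycycline-inducible promoter together with 1 guide. The guide was non-targeting in the control line and aimed at PELO or at HBS1L in the other lines. Cells of each of the 3 lines grew in RPMI medium with tetracycline-free serum, with doxycycline (dox) at 2 µg per mL or without it, and were taken at 48 h or 96 h, which made 12 groups of 3 libraries. The labels do not say whether a line was 1 clone or a pool, how many cells in a dox culture were edited, or whether the 3 replicates of a group came from different cultures. The p-values therefore cover the spread among the libraries at hand, which may be technical. The control line without dox controls for neither the drug nor Cas9, whereas the control line with dox carries both.

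PELO and HBS1L act together on ribosomes that have stalled at the end of a broken or unfinished message. HBS1L is a GTPase that delivers PELO to the empty decoding site, after which the ribosome is split, and the SKI complex feeds the freed message to the exosome for degradation. The 9 genes do not belong to that machinery. They are 2 cell surface receptors (UNC5B and IL21R), a secreted ligand (APLN), 2 enzymes (FUT1 and PIK3CG), a stress-induced protein of translation control (NIBAN1), a microtubule motor (KIF21B), a factor of vesicle secretion (SYTL1) and a calcium-binding protein (S100A2).

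The integrated stress response was known from earlier results of these data to move in the HBS1L line when its list was chosen. Promoter letters are shown because it had the most calls among the lists of related genes tested with the HBS1L guide. Its transcription factors ATF4 and C/EBP read the letters TGATGNAA. RefSeq windows (GRCh38.p14, the 250 bases before a start were searched, both strands) were matched for 7 of the 9 genes, with 9 windows in all, and UNC5B and KIF21B had no entry. TGATGNAA was present in 3 of the 9 windows, those of SYTL1, FUT1 and IL21R, and in 3.14% of all 35116 windows. Each stretch below holds the match in capitals with 30 bases on either side. The SYTL1 stretch lies at chr1:27341946-27342013 on the + strand, with the match 39 bases before the start and in reverse complement. The FUT1 stretch lies at chr19:48755440-48755507 on the - strand, with the match 112 bases before a start, in no gene. The IL21R stretch lies at chr16:27427123-27427190 on the + strand, with the match 111 bases before a start inside the gene, in an intron of GENCODE 29.
SYTL1: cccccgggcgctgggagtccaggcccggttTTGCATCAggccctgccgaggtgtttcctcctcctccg
FUT1: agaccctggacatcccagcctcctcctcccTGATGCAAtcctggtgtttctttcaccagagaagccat
IL21R: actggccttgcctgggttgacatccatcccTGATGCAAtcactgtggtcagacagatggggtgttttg
All 3 matches read the same 8 letters, TGATGCAA, that of SYTL1 in reverse complement. The AP-1 letters TGANTCA were in 1 of the 9 windows (S100A2) and in 6.57% of all, and the GC box GGGCGG was in 3 of the 9 (APLN, FUT1 and NIBAN1) and in 42.6% of all. Neither overlapped a TGATGNAA match. A match describes letters only, and no binding was measured here. The 3 genes that hold TGATGNAA did not share a direction: at 96 h the HBS1L response minus the control response was above 0 for SYTL1 and FUT1 and below 0 for IL21R.

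HBS1L message was lower with dox throughout the HBS1L line. Its level at 48 h was 107, 104 and 105 CPM (read counts relative to the scaled library size) in untreated cells and 36.1, 37.2 and 35.4 CPM in dox-treated cells. The 96 h levels were 110.3, 113 and 109 CPM against 33.4, 34.1 and 33.8 CPM. Without dox the HBS1L line already held less of it than the control line, with means of 105.2 against 123.3 CPM (48 h) and 110.7 against 142.8 CPM (96 h). In the PELO line HBS1L message had means without and with dox of 132.2 and 127.4 CPM (48 h) and of 149.2 and 221.0 CPM (96 h). PELO message does not serve as a check of the PELO line, with mean levels without and with dox of 25.2 and 20.7 CPM (48 h) and of 29.1 and 28.3 CPM (96 h). Total counts ran from 45356024 to 66704841 in all libraries but 1, and replicate 2 of the PELO line with dox at 96 h held 107436235. The epithelial keratins KRT8 (720 to 2022 CPM) and KRT18 (711 to 1937 CPM) were high in all libraries, while EPCAM and CDH1, which define many epithelial cells, reached at most 0.0483 and 0.0542 CPM. The 48 h and 96 h libraries are numbered in different blocks, and a difference between times cannot be told apart from one between blocks. The summed markers of all 4 cell types listed were lower with dox than without it in PELO cells at 96 h. The sums went from 3349 to 3707 CPM down to 1606 to 1956 CPM for 7 epithelial markers, and from 226 to 249.7 CPM down to 30.7 to 34.8 CPM for 6 fibroblast markers. The 6 endothelial markers went from 17.4 to 19.9 CPM down to 1.18 to 1.77 CPM, and the 10 leukocyte markers, low throughout, are given with IL21R. These sums rest on few genes. Over all libraries COL1A2 ran from 29.2 to 247.7 CPM, whereas the fibroblast markers DCN and LUM reached at most 3 counts. The endothelial marker CDH5 reached 40.7 CPM, whereas PECAM1, KDR and TEK reached at most 2 counts. The part of the lower sums in the PELO values at 96 h was not tested. In bulk RNA, a change in the share of cells that make a message cannot be told apart from a change in message per cell.

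Scaled for exonic length, the 9 genes differed widely in level. The highest group mean per kilobase of exon was 57.6 CPM for S100A2 and 32.0 CPM for NIBAN1, both in the PELO line with dox at 96 h, and 7.90 CPM for UNC5B. For the other 6 it was between 0.266 CPM per kilobase (KIF21B) and 1.06 CPM per kilobase (APLN). Of the 9 genes, 4 lie on chromosome 1.

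The values that chose the genes were the log2 differences between the dox response of the HBS1L line (dox against no dox) and that of the control line, and they are given as a description with no test. Ranked from the top among 14350 genes with a mean of at least 1 CPM, FUT1 (1.57), UNC5B (1.54), NIBAN1 (1.37) and KIF21B (1.10) took places 2, 3, 6 and 8 at 48 h, and APLN (-1.21) took place 2 from the bottom. At 96 h, UNC5B (1.63), SYTL1 (1.57), S100A2 (1.56), NIBAN1 (1.44) and FUT1 (1.38) took places 7, 9, 10, 15 and 18 from the top, and IL21R (-1.82) and PIK3CG (-1.76) took places 1 and 3 from the bottom. The set is therefore not the complete top of either ranking. ALOX5AP had a larger difference than any of them at both times (1.78 and 3.06), and LAMP3 (1.40 and 2.69) lay among them at 48 h and above them at 96 h. KIF21B at 96 h (0.76, place 147 from the top), APLN at 96 h (-0.61, place 89 from the bottom) and SYTL1 at 48 h (0.62, place 82 from the top) were further in. S100A2 (-0.05), PIK3CG (-0.04) and IL21R (-0.46, and -0.18 without replicate 1 of the control dox group) stood nearer to 0 at 48 h.

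**Figure D1:**
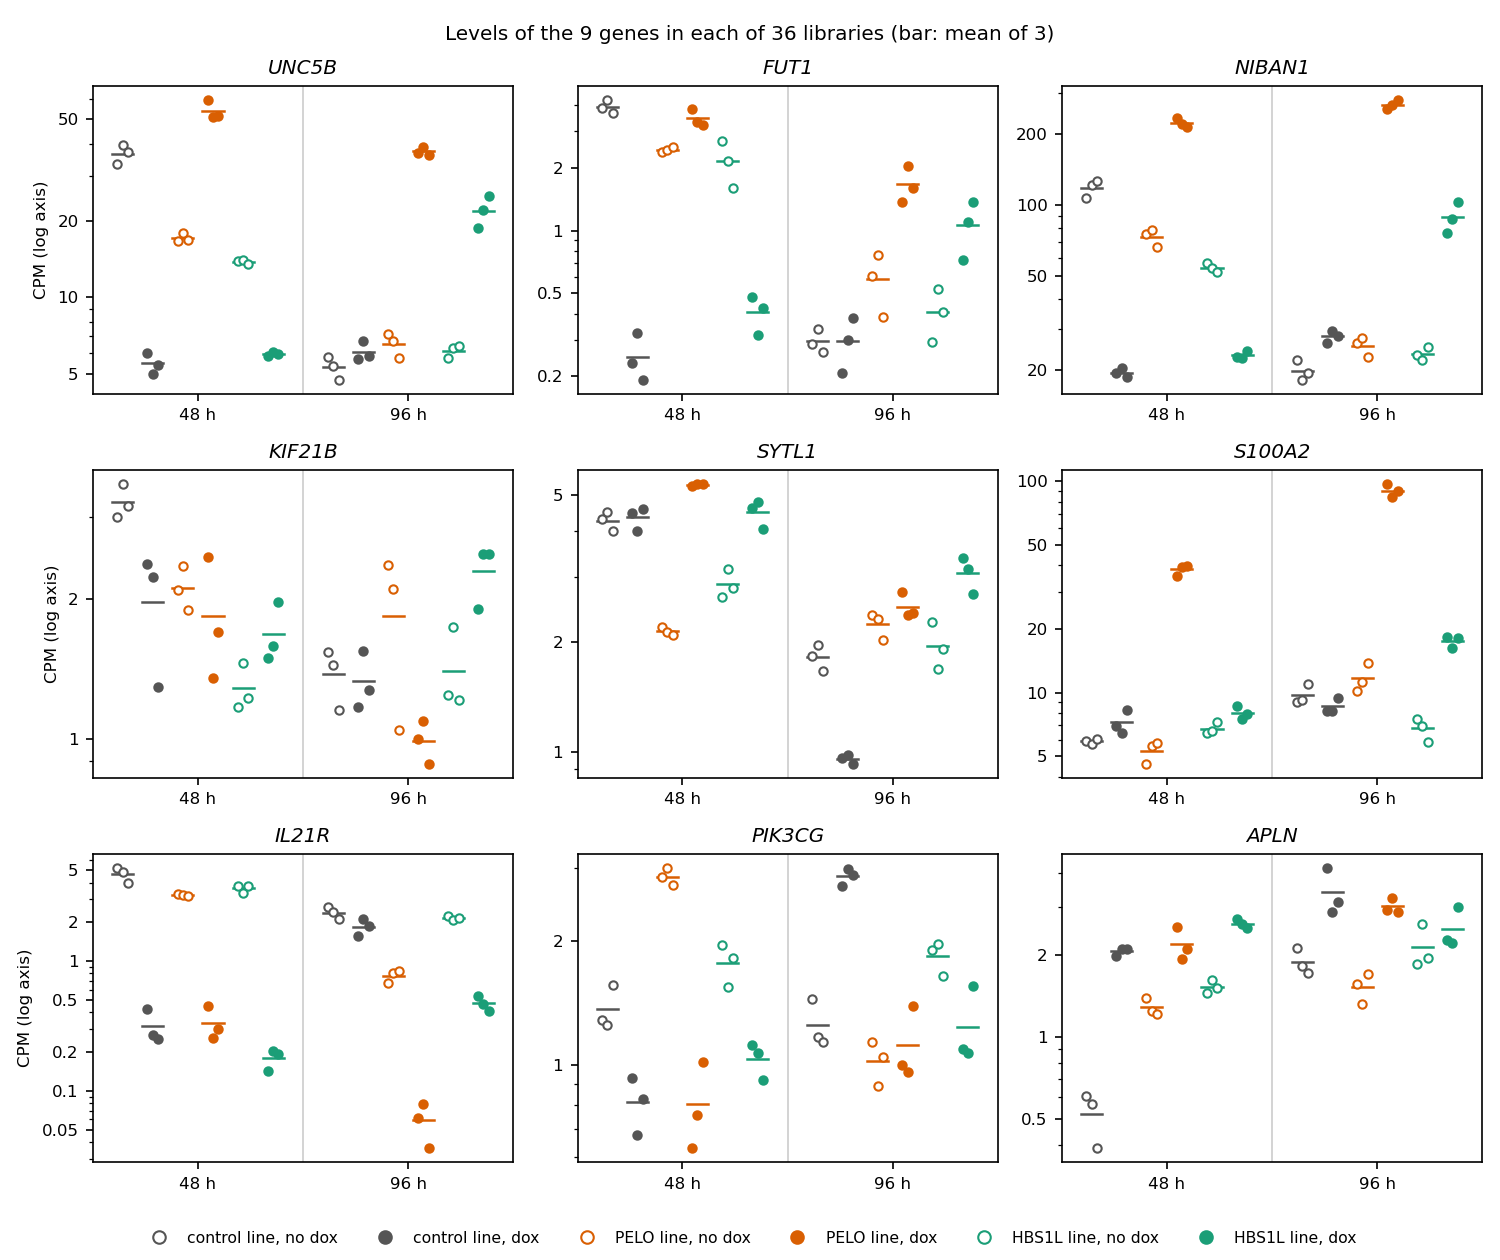
Level of each of the 9 genes in the 36 libraries, in CPM on a log axis, with open points for cultures without dox, filled points for cultures with dox and a bar at the mean of 3. At 48 h the filled control and HBS1L points of UNC5B, FUT1 and NIBAN1 lie close together and below the open ones, whereas at 96 h their filled HBS1L points lie above the control points of that time.

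The 2 times differed in how the HBS1L line came to stand apart from the control line. At 48 h the lines already differed without dox, with 37.9% of the 20767 genes called between them (edgeR's quasi-likelihood test, Benjamini-Hochberg adjusted p under 0.05), and with dox 23.1% were called. At 96 h only 0.135% were called without dox and 29.8% with dox. In the control line, dox against untreated gave calls for 35% of genes at 48 h and for 7.52% at 96 h. For UNC5B, NIBAN1 and FUT1 the untreated HBS1L cells stood below the untreated control cells at 48 h, with log2 differences of -1.41, -1.12 and -0.87. A difference of responses at 48 h therefore contains that starting gap as well as the levels under dox. The 2 contributions at 48 h are given here or below for UNC5B, NIBAN1, FUT1, KIF21B, SYTL1 and APLN. Those at 96 h are given below for SYTL1, S100A2 and PIK3CG.

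UNC5B (ENSG00000107731.12, chromosome 10, 71212570 to 71302864 on the + strand in GENCODE 29 on GRCh38, the annotation used for all 9 genes) encodes a netrin receptor that can signal repulsion in axons and blood vessels and can promote cell death when netrin is absent. The control line at 48 h held 33.3, 39.6 and 37.1 CPM without dox and 6.003, 5.001 and 5.43 CPM with dox, and the HBS1L line 13.9, 14.1 and 13.5 CPM and 5.86, 6.06 and 5.99 CPM. Both lines were lower with dox in every library, the drop was smaller in the HBS1L line (-1.21 ± 0.09 against -2.74 ± 0.09 on the log2 scale), and with dox the lines differed by 0.12 ± 0.10. The control line at 96 h held 5.81, 5.35 and 4.73 CPM and 5.700, 6.69 and 5.88 CPM, and the HBS1L line 5.76, 6.31 and 6.41 CPM and 18.6, 22.04 and 24.9 CPM. Here the control groups overlapped, and every dox library of the HBS1L line was above every other library of the 2 lines at that time, with a mean of 21.9 ± 3.15 CPM (SD, n = 3). The PELO line, which the choice of genes did not use, went from 16.7, 17.9 and 16.8 CPM to 59.7, 50.98 and 51.6 CPM at 48 h and from 7.15, 6.69 and 5.73 CPM to 36.95, 39.04 and 36.2 CPM at 96 h. UNC5B rose there at both times, 3.16-fold (log2 change 1.66 ± 0.08, edgeR adjusted p = 1.75e-18) and 5.74-fold (2.52 ± 0.09, edgeR adjusted p = 2.00e-23).

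IL21R (ENSG00000103522.16, chromosome 16, 27402162 to 27452042 on the + strand) encodes the receptor chain that binds interleukin-21 and signals with the common gamma chain through JAK kinases, mostly in lymphocytes. In control cells at 48 h it stood at 5.14, 4.81 and 3.94 CPM untreated and 0.429, 0.268 and 0.251 CPM with dox, and in HBS1L cells at 3.78, 3.33 and 3.75 CPM and 0.142, 0.2004 and 0.1899 CPM. The message was lower with dox in every library of both lines. By 96 h the control values were 2.57, 2.38 and 2.09 CPM untreated and 1.55, 2.08 and 1.84 CPM with dox, a log2 change of -0.36 ± 0.13. Those of the HBS1L line were 2.198, 2.07 and 2.13 CPM and 0.531, 0.468 and 0.4101 CPM, a log2 change of -2.18 ± 0.16. The IL21R dox libraries all lay below the no-dox libraries in every line at both times, including the control line. None of the rest of the 9 genes did so. How many of all genes tested do was not counted, so this order is not shown to be particular to IL21R. With the PELO guide it went from 3.24, 3.21 and 3.15 CPM to 0.447, 0.253 and 0.298 CPM at 48 h and from 0.678, 0.7995 and 0.827 CPM to 0.0614, 0.0795 and 0.0362 CPM at 96 h, where the dox libraries held 2 to 8 counts. It fell at both times (log2 change -3.25 ± 0.17, edgeR adjusted p = 9.60e-18, and -3.56 ± 0.29, edgeR adjusted p = 1.92e-13). The antisense gene IL21R-AS1 covers 23.3% of the exonic length on the other strand, and whether counting used strand is not given in the sources used here. Of 10 leukocyte markers, 7 reached at most 7 counts in any library, among them PTPRC (at most 3 counts) and CD3E (at most 1 count). The other 3 were higher, at up to 8.49 CPM for CD14, 8.65 CPM for CORO1A and 0.916 CPM for ITGAM. In the PELO line, where IL21R fell, the sum of the 10 was also lower with dox at 96 h (2.80 to 3.55 CPM against 10.7 to 14.4 CPM). It was lower there at 48 h too (6.53 to 7.11 CPM against 8.04 to 9.61 CPM). At 48 h the sum was higher with dox in the control line (14.8 to 15.8 CPM against 8.78 to 9.07 CPM), although IL21R was lower. The same held in the HBS1L line (13.7 to 14.2 CPM against 9.57 to 10.2 CPM). The part of these sums in the IL21R result was not tested.

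APLN (ENSG00000171388.12, chromosome X, 129645259 to 129654937 on the - strand) encodes apelin, a secreted peptide that acts on a G-protein-coupled receptor in blood vessels and heart. Its 48 h libraries read 0.604, 0.564 and 0.3901 CPM without dox and 1.98, 2.09 and 2.11 CPM with dox for the control guide, and 1.45, 1.61 and 1.51 CPM and 2.701, 2.59 and 2.497 CPM for the HBS1L guide. Both lines were higher with dox, and the untreated control group was the lowest of the 12, 1.54 ± 0.20 below the untreated HBS1L group on the log2 scale. With dox the 2 lines differed by only 0.33 ± 0.14, so the difference of responses at 48 h (-1.21 ± 0.24) rested mainly on the untreated levels. The 96 h libraries read 2.11, 1.82 and 1.72 CPM and 4.15, 2.88 and 3.12 CPM for the control guide, and 1.85, 2.597 and 1.95 CPM and 2.27, 2.21 and 3.002 CPM for the HBS1L guide, and only the latter groups overlapped. Cells with the PELO guide went from 1.39, 1.24 and 1.22 CPM to 2.52, 1.92 and 2.11 CPM at 48 h and from 1.56, 1.32 and 1.69 CPM to 2.93, 3.22 and 2.88 CPM at 96 h. APLN rose there by 0.78 ± 0.16 (edgeR adjusted p = 9.39e-05) and by 0.99 ± 0.14 (edgeR adjusted p = 1.11e-07) on the log2 scale.

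FUT1 (ENSG00000174951.12, chromosome 19, 48748011 to 48755390 on the - strand) encodes a fucosyltransferase that builds the H antigen, the sugar base of the ABO blood groups. Its counts ran from 10 to 240 per library, so its levels are less precise than those of UNC5B or NIBAN1. The control values at 48 h were 3.87, 4.23 and 3.66 CPM without dox and 0.232, 0.322 and 0.193 CPM with dox, and those of HBS1L cells were 2.67, 2.16 and 1.595 CPM and 0.4798, 0.317 and 0.424 CPM. Both lines were lower with dox in every library, and their dox libraries overlapped, at means of 0.249 ± 0.0658 and 0.407 ± 0.0825 CPM (SD, n = 3). With dox the HBS1L line stood 0.69 ± 0.35 above the control line on the log2 scale. After 96 h control cells showed 0.286, 0.337 and 0.263 CPM untreated and 0.207, 0.299 and 0.379 CPM with dox, which overlapped, and HBS1L cells 0.292, 0.527 and 0.406 CPM and 0.724, 1.104 and 1.38 CPM, with every dox library higher. FUT1 in PELO cells went from 2.39, 2.44 and 2.503 CPM to 3.82, 3.33 and 3.21 CPM at 48 h and from 0.605, 0.762 and 0.386 CPM to 1.37, 2.05 and 1.61 CPM at 96 h. It rose by 0.50 ± 0.16 (edgeR adjusted p = 0.0112) and by 1.56 ± 0.22 (edgeR adjusted p = 8.81e-08) on the log2 scale. The call at 48 h was lost with limma on the authors' deposited log2 table (0.48, adjusted p = 0.101) and without replicate 1 of the dox group (0.42, edgeR adjusted p = 0.0617).

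The start of FUT1 lies 169 bases from that of FGF21, a hormone gene that reads in the opposite direction, and the FUT1 stretch printed above lies between the 2 starts. The nearest protein-coding neighbour was looked up for all 9 genes after their values were seen, and FGF21 was the only one within 10 kilobases. At 48 h FGF21 held 1.93, 1.87 and 2.09 CPM without dox and 0.0357, 0.0536 and 0.155 CPM with dox in the control line, and 1.14, 1.03 and 0.947 CPM and 0.142, 0.0501 and 0.0876 CPM in the HBS1L line. Both lines were again lower with dox in every library. At 96 h the HBS1L line held 0.117, 0.162 and 0.122 CPM (6 to 8 counts) and 0.3702, 0.334 and 0.4101 CPM (20 to 25 counts), against 0.0952, 0.0792 and 0.193 CPM and 0.0518, 0.0998 and 0.103 CPM in the control line. The difference of responses was 1.98 ± 0.62 at 96 h (edgeR adjusted p = 0.0323) and 1.12 ± 0.57 at 48 h (edgeR adjusted p = 0.332). At these low counts the call at 96 h was lost in 5 of 12 fits that left out 1 library, where the difference ran from 1.51 to 2.18. In the PELO line FGF21 rose with dox by 0.70 ± 0.20 at 48 h (edgeR adjusted p = 0.00381). At 96 h it rose there by 0.88 ± 0.35 (edgeR adjusted p = 0.0279), with overlapping groups of 5 to 13 counts without dox and 10 to 27 with dox.

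**Figure D2:**
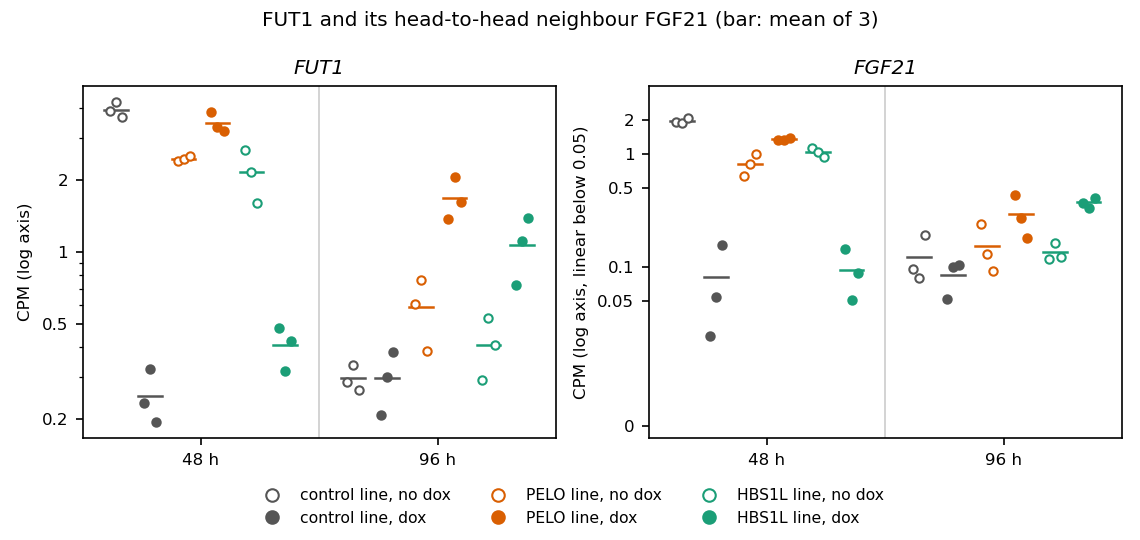
Levels of FUT1 and of FGF21, whose start lies 169 bases away on the other strand, in CPM per library (log axes, linear below 0.05 CPM for FGF21), with a bar at the mean of 3. Both genes are high without dox at 48 h in the control and HBS1L lines and low with dox, and at 96 h the HBS1L dox libraries of both lie above the control libraries of that time.

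PIK3CG (ENSG00000105851.11, chromosome 7, 106865278 to 106907145 on the + strand) encodes the gamma catalytic subunit of phosphoinositide 3-kinase, which is coupled to G proteins and is best known from leukocytes. Control cells at 48 h had 1.28, 1.25 and 1.56 CPM without dox and 0.929, 0.679 and 0.8305 CPM with it, and HBS1L cells 1.95, 1.55 and 1.82 CPM and 1.12, 1.07 and 0.9201 CPM. Both lines were lower with dox by nearly the same amount (-0.74 ± 0.18 and -0.78 ± 0.16 on the log2 scale). Control cells at 96 h had 1.44, 1.17 and 1.14 CPM and 2.71, 2.99 and 2.897 CPM, and HBS1L cells 1.91, 1.97 and 1.64 CPM and 1.09, 1.07 and 1.56 CPM. The control line was higher with dox (1.19 ± 0.14) and the HBS1L line lower (-0.57 ± 0.16), so most of the difference of responses (-1.76 ± 0.21) came from the control line. At that time the HBS1L line differed from the control line by 0.55 ± 0.16 without dox and by -1.21 ± 0.14 with dox. PELO cells went from 2.86, 2.998 and 2.74 CPM to 0.6302, 0.7596 and 1.02 CPM at 48 h, where PIK3CG fell by 3.57-fold (log2 change -1.83 ± 0.16, edgeR adjusted p = 7.76e-12). At 96 h they held 1.14, 0.893 and 1.05 CPM without dox and 1.003, 0.964 and 1.39 CPM with dox, overlapping groups with a log2 change of 0.10 ± 0.17 (edgeR adjusted p = 0.618). The 10 leukocyte markers summed to 11.9 to 13.8 CPM without and 9.95 to 10.98 CPM with dox in the control line at 96 h, and to 11.6 to 12.3 and 9.47 to 10.5 CPM in the HBS1L line. CD14 and CORO1A make up most of that sum, and its part in the PIK3CG levels was not tested.

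NIBAN1 (ENSG00000135842.17, chromosome 1, 184790724 to 184974550 on the - strand, listed there under the older symbol FAM129A) encodes a protein induced by stress of the endoplasmic reticulum and by amino acid shortage. NIBAN1 levels at 48 h were 107, 122 and 128 CPM without dox and 19.5, 20.4 and 18.7 CPM with dox in control cells, and 56.9, 54.3 and 52.4 CPM and 22.7, 22.6 and 24.1 CPM in HBS1L cells. As for UNC5B and FUT1, both lines were lower with dox, from a lower start in the HBS1L line, to levels that differed by 0.25 ± 0.09 on the log2 scale. NIBAN1 levels at 96 h were 22.03, 18.3 and 19.4 CPM and 26.2, 29.4 and 27.9 CPM in control cells, and 23.3, 22.2 and 25.2 CPM and 76.5, 87.8 and 103 CPM in HBS1L cells. Every dox library of the HBS1L line was above the control range, and the control dox libraries were also all above their untreated ones (0.48 ± 0.09). Under the PELO guide NIBAN1 went from 75.8, 78.5 and 66.8 CPM to 236, 221 and 216 CPM at 48 h and from 26.2, 27.4 and 22.8 CPM to 256, 268 and 280.0 CPM at 96 h. It rose 3.04-fold (log2 change 1.60 ± 0.08, edgeR adjusted p = 2.06e-16) and 10.5-fold (3.39 ± 0.09, edgeR adjusted p = 1.42e-24), the largest rise of the 9 genes in that line.

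The 17 listed NIBAN family and integrated stress response genes, which do not include NIBAN1, were summed. With dox the sum went in the direction of UNC5B, FUT1 and NIBAN1 in the PELO and HBS1L lines and in the control line at 48 h. In the control line at 96 h its groups overlapped, as for UNC5B and FUT1, whereas NIBAN1 was higher with dox. At 48 h the sum ranged from 2831 to 2904 CPM without dox and from 1139 to 1159.8 CPM with dox in the control line, and from 2356 to 2420.4 CPM and 1166 to 1204 CPM in the HBS1L line. At 96 h it ranged from 1228 to 1267 CPM and 1201 to 1239.9 CPM in the control line, and from 1206 to 1302 CPM and 1658 to 1954 CPM in the HBS1L line. PELO cells had sums of 2316 to 2408 CPM untreated and 2942 to 2989.6 CPM with dox at 48 h, and of 1474 to 1530.2 CPM and 2946 to 3114 CPM at 96 h. The untreated cultures at 48 h thus stood above those at 96 h in all 3 lines. In PELO cells with dox the sums of the 2 times were close. Mean UNC5B there went from 54.1 CPM at 48 h to 37.4 CPM at 96 h, and mean FUT1 from 3.46 to 1.68 CPM. Of the 16 list genes tested, 8 rose and 3 fell in the PELO line at 48 h, with a median log2 change of 0.21. The part of these sums in the levels of the 3 genes was not tested.

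KIF21B (ENSG00000116852.15, chromosome 1, 200969390 to 201023700 on the - strand) encodes a kinesin motor that moves along microtubules and limits their growth, known mainly from neurons and immune cells. The 3 control libraries of 48 h lay at 3.003, 3.52 and 3.16 CPM without dox and 2.38, 2.23 and 1.29 CPM with dox, and those of the HBS1L line at 1.17, 1.46 and 1.23 CPM and 1.49, 1.59 and 1.97 CPM. All control libraries were lower with dox and all HBS1L libraries higher, and with dox the lines differed by -0.22 ± 0.22 on the log2 scale. Without dox the HBS1L line stood further below the control line (-1.33 ± 0.22). The difference of responses at 48 h (1.10 ± 0.31) therefore rested on the untreated levels. The 3 control libraries of 96 h lay at 1.54, 1.45 and 1.16 CPM and 1.17, 1.55 and 1.28 CPM, which overlapped, and those of the HBS1L line at 1.24, 1.74 and 1.22 CPM and 1.899, 2.49 and 2.49 CPM, with every dox library higher. KIF21B had a wide spread for its level, and the PELO line did not follow the HBS1L line. PELO cells held 2.09, 2.35 and 1.895 CPM without dox and 2.46, 1.35 and 1.701 CPM at 48 h (log2 change -0.20 ± 0.23, edgeR adjusted p = 0.502). At 96 h they held 2.36, 2.101 and 1.05 CPM and 1.003, 1.09 and 0.886 CPM, and KIF21B fell by 1.82-fold there (log2 change -0.86 ± 0.24, edgeR adjusted p = 0.00208), although 1 untreated library was within the range of the dox libraries.

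SYTL1 (ENSG00000142765.18, chromosome 1, 27342020 to 27353937 on the + strand) encodes a synaptotagmin-like protein that links RAB27 on secretory vesicles to the cell membrane. SYTL1 in control cells was at 4.31, 4.49 and 4.004 CPM without dox and 4.47, 4.001 and 4.597 CPM with dox at 48 h, which overlapped, and in HBS1L cells at 2.64, 3.16 and 2.805 CPM and 4.62, 4.79 and 4.06 CPM. SYTL1 in control cells was at 1.83, 1.96 and 1.66 CPM and 0.967, 0.982 and 0.931 CPM at 96 h, and in HBS1L cells at 2.26, 1.68 and 1.91 CPM and 3.38, 3.16 and 2.69 CPM. The HBS1L line was higher with dox in every library and by much the same amount at both times (0.64 ± 0.10 and 0.66 ± 0.11 on the log2 scale). The larger difference of responses at 96 h (1.57 ± 0.17 against 0.62 ± 0.13) came from the control line, which was lower with dox only then (-0.92 ± 0.13). At 48 h the untreated HBS1L cells stood below the untreated control cells (-0.57 ± 0.10), and with dox the lines differed by only 0.04 ± 0.09. At 96 h the lines differed by 0.11 ± 0.12 without dox and by 1.68 ± 0.12 with dox. PELO cells moved from 2.195, 2.13 and 2.09 CPM to 5.29, 5.36 and 5.36 CPM at 48 h, a rise of 2.496-fold (log2 change 1.32 ± 0.10, edgeR adjusted p = 1.56e-13). At 96 h they held 2.36, 2.31 and 2.02 CPM without dox and 2.72, 2.36 and 2.39 CPM with dox, which overlapped (log2 change 0.15 ± 0.11, edgeR adjusted p = 0.221).

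S100A2 (ENSG00000196754.13, chromosome 1, 153561108 to 153567890 on the - strand) encodes a small calcium-binding protein of epithelial cells. Levels in control cells at 48 h were 5.93, 5.71 and 6.04 CPM without dox and 6.99, 6.47 and 8.29 CPM with dox, and in HBS1L cells 6.43, 6.56 and 7.27 CPM and 8.64, 7.48 and 7.89 CPM. The dox libraries were a little higher in both lines, by 0.30 ± 0.11 and 0.24 ± 0.11 on the log2 scale. Levels in control cells at 96 h were 8.98, 9.23 and 11.04 CPM and 8.205, 8.22 and 9.45 CPM, which overlapped, and in HBS1L cells 7.49, 6.98 and 5.86 CPM and 18.4, 16.4 and 18.2 CPM, with every dox library above all control libraries. At 96 h the HBS1L line differed from the control line by -0.52 ± 0.11 without dox and by 1.03 ± 0.10 with dox on the log2 scale. The difference of responses at 96 h contains both. By its dox response S100A2 stood apart in the HBS1L line only at 96 h, whereas in the PELO line it had risen by 48 h. There it went from 4.604, 5.596 and 5.76 CPM to 35.7, 39.3 and 39.9 CPM at 48 h and from 10.2, 11.3 and 13.8 CPM to 96.96, 83.9 and 90.1 CPM at 96 h. The rises were 7.16-fold (log2 change 2.84 ± 0.10, edgeR adjusted p = 6.09e-21) and 7.67-fold (2.94 ± 0.09, edgeR adjusted p = 1.80e-23).

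**Figure D3:**
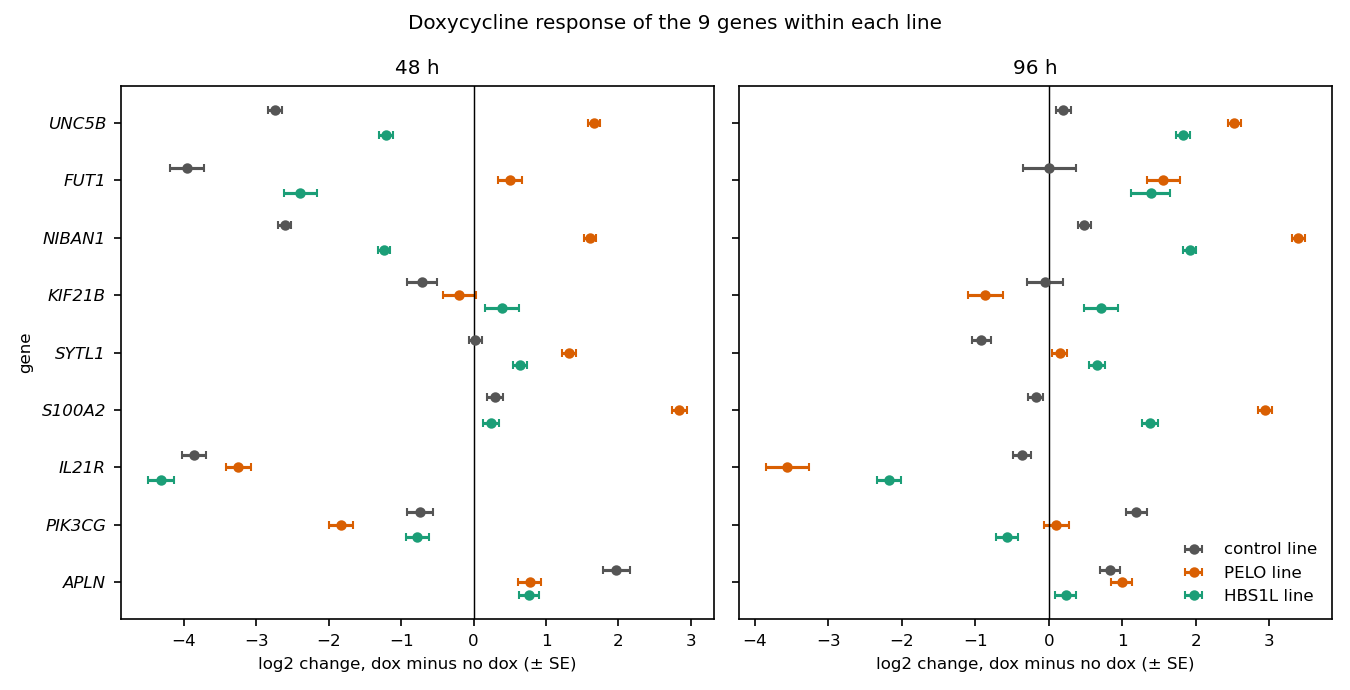
Dox response (dox minus no dox, log2 ± SE, each from 3 libraries against 3) of the 9 genes in the control, PELO and HBS1L lines at 48 h and 96 h. At 96 h the PELO and HBS1L points of UNC5B, FUT1, NIBAN1 and S100A2 all lie above 1 and those of IL21R below -2. The PELO and HBS1L points lie close for FUT1 (1.56 and 1.39) and apart for NIBAN1 (3.39 and 1.92). The control points of these 5 genes lie between -0.36 and 0.48.

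The PELO line gives the only comparison in which the 9 genes could be tested apart from their selection, because no PELO library entered it. At 48 h, 8 of the 9 genes changed with dox in that line, 6 up and 2 down (edgeR, Benjamini-Hochberg adjusted p under 0.05), against 48% of all genes tested (24.2% up and 23.7% down). At 96 h, 7 of the 9 changed, 5 up and 2 down, against 66.8% of all genes (34.4% up and 32.5% down), a share not far from that of the 9. Their sizes stood further from the rest: the median absolute log2 change was 1.60 at 48 h and 1.56 at 96 h, against 0.27 and 0.47 over all genes tested. The set was chosen for large values in other groups of the same experiment, so these counts and medians describe it and carry no test of the set. Of the 6 genes whose HBS1L difference was above 0 at 96 h, 4 rose in the PELO line at 96 h (UNC5B, FUT1, NIBAN1 and S100A2), KIF21B fell and SYTL1 did not pass the test. Of the 3 genes below 0, IL21R fell, APLN rose and PIK3CG did not pass the test.

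The PELO response itself changed between 48 h and 96 h for 5 of the 9 genes, against 42.1% of all genes (edgeR, adjusted p under 0.05). It was larger at 96 h for NIBAN1 (log2 difference 1.79 ± 0.12, edgeR adjusted p = 1.72e-13), FUT1 (1.06 ± 0.28, edgeR adjusted p = 0.0021) and UNC5B (0.86 ± 0.12, edgeR adjusted p = 3.24e-07). For all 3 genes the untreated libraries were lower at 96 h than at 48 h, whereas the dox libraries were lower at 96 h for UNC5B and FUT1 and higher for NIBAN1. SYTL1 rose at 48 h and did not pass the test at 96 h (difference -1.17 ± 0.15, edgeR adjusted p = 3.48e-08), and PIK3CG fell at 48 h and did not pass it at 96 h (difference 1.94 ± 0.24, edgeR adjusted p = 2.27e-08). S100A2, IL21R, APLN and KIF21B did not pass this test, although KIF21B (-0.67) passed it without replicate 2 of the dox group at 48 h (-0.86) or replicate 3 of the untreated group at 96 h (-0.96).

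Relatives of the 9 genes, taken from 9 lists of receptors, ligands, enzymes and family members, were tested in the HBS1L comparison, 104 genes in all. The HBS1L response differed from the control response for 15 of the 104 (14.4%) at 48 h, 14 above and 1 below it, against 3.85% of all genes tested. At 96 h it differed for 29 (27.9%), 22 above and 7 below, against 10.7% of all (edgeR, adjusted p under 0.05). A gene above the control response need not be higher with dox, since it may also have been lowered less. The NIBAN family and integrated stress response list held 12 of the 15 at 48 h and 14 of the 29 at 96 h. Of its 16 tested genes, 12 were above the control response and 0 below at 48 h, with a median log2 difference of 0.40, and 14 above and 0 below at 96 h, with a median of 0.63. The median over all genes was -0.01 and 0.01. At 48 h the sum of the list, given above, was lower with dox in both lines and reached similar levels with dox from a lower untreated start in the HBS1L line, whereas at 96 h it was higher with dox in the HBS1L line. That this response moves in the HBS1L line was known from earlier results of these data when the list was chosen. Without that list, 3 of 88 relatives (3.41%) were called at 48 h and 15 (17%) at 96 h. Counts at 48 h rested on single libraries: without replicate 3 of the HBS1L line with dox, 9 relatives were called, all in the stress list. Over all genes, the 799 called at 48 h became 512 and 484 when replicate 3 was left out of the untreated and of the dox-treated control group. The 2228 called at 96 h became 1404, 1391 and 1484 without replicate 2 of the untreated control, the untreated HBS1L and the HBS1L dox group.

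VEGFA, the vascular growth factor, was the member of the stress list with the smallest adjusted p at 48 h. Dox took it from 116.9 to 46.6 CPM in HBS1L cells and from 163.8 to 43.1 CPM in control cells (log2 difference 0.60 ± 0.07, edgeR adjusted p = 1.61e-06), so the dox levels were close and the untreated ones were not, as for UNC5B and NIBAN1. At 96 h it was PHGDH, the first enzyme of serine synthesis, which went from 109.3 to 211.4 CPM in the HBS1L line and from 109.0 to 102.8 CPM in the control line (1.04 ± 0.06, edgeR adjusted p = 1.27e-14).

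Among the motors related to KIF21B, KIF1A, a kinesin of vesicle transport, was above the control response at both times (0.42 ± 0.10, edgeR adjusted p = 0.0132, and 0.85 ± 0.10, edgeR adjusted p = 6.12e-07). At 48 h it was lower with dox in both lines, less so in the HBS1L line (47.5 to 42.8 CPM) than in the control line (75.8 to 51.2 CPM). At 96 h it went from 38.3 to 63.2 CPM in the HBS1L line and from 38.6 to 35.4 CPM in the control line. Of the 12 motors tested, KIF1A was the 1 called at 48 h, and 2 were above the control response at 96 h. Its call at 48 h was lost in 2 of 12 fits without 1 library. Among the genes next to IL21R in JAK-STAT signalling, 0 of 16 were called at 48 h (2 had an unadjusted p under 0.05, and DESeq2 called 1 and limma 0), and 1 was above and 2 below the control response at 96 h. STAT3, a transcription factor of that pathway, fell from 208.9 to 151.3 CPM in the HBS1L line, against 212.7 and 221.5 CPM in the control line (-0.52 ± 0.06, edgeR adjusted p = 2.76e-07).

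Of 12 class I PI3K genes related to PIK3CG, 0 were called at 48 h (1 at an unadjusted p under 0.05, 0 by DESeq2 and by limma) and 3 were below the control response at 96 h, among them the lipid phosphatase gene INPP4B (-0.37 ± 0.08, edgeR adjusted p = 0.00127). Of 9 genes of the synaptotagmin-like and RAB27 list, 0 were called at 48 h (1 at an unadjusted p under 0.05, 0 by DESeq2 and by limma), and 2 were above and 2 below the control response at 96 h. RAB27B, the small GTPase that such proteins bind, was below it (-0.28 ± 0.06, edgeR adjusted p = 0.00362), going from 335.6 to 328.5 CPM in the HBS1L line and from 343.3 to 407.2 CPM in the control line. The S100 family had 1 of 12 above (S100P, 1.41 ± 0.39, edgeR adjusted p = 0.0321) and 1 below at 48 h, and 1 above at 96 h (S100A11, 0.29 ± 0.07, edgeR adjusted p = 0.00665). S100P was low, going from 0.698 to 0.279 CPM in the HBS1L line and from 1.95 to 0.294 CPM in the control line, and its call was lost in 7 of 12 fits without 1 library.

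The netrin receptors and ligands beside UNC5B had 0 of 7 called by edgeR at either time. At an unadjusted p under 0.05 there was 1 at 48 h and 0 at 96 h, and DESeq2 and limma also called 0. The fucosylation genes beside FUT1 had 0 of 14 called at 48 h (2 at an unadjusted p under 0.05, 0 by DESeq2 and by limma) and 1 above the control response at 96 h, GFUS, an enzyme that makes GDP-fucose (0.20 ± 0.07, edgeR adjusted p = 0.0486), a call lost in 10 of 12 fits without 1 library. The apelin system had 0 of 6 called at 48 h (1 at an unadjusted p under 0.05, 0 by DESeq2 and by limma) and 1 above at 96 h, the protease gene FURIN (0.26 ± 0.08, edgeR adjusted p = 0.0228), lost in 5 of 12 such fits.

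**Figure D4:**
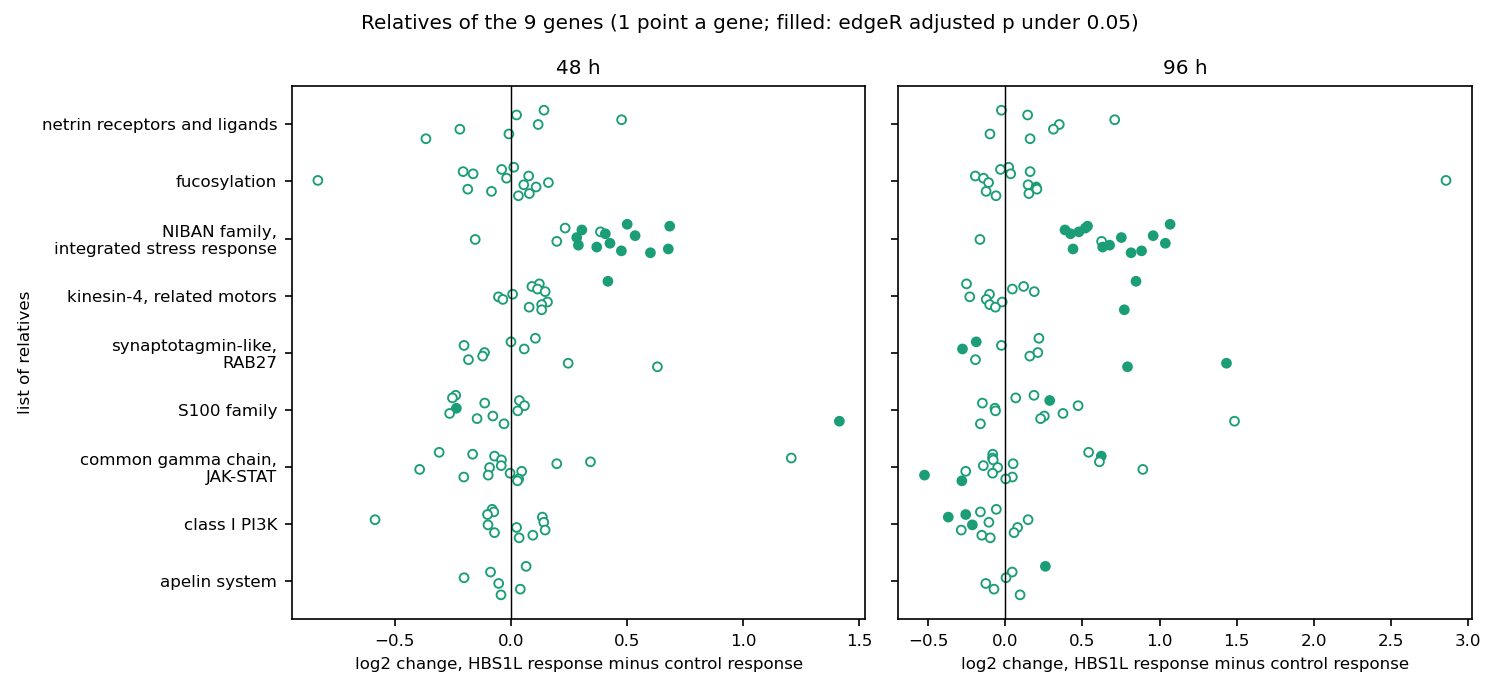
Log2 difference between the HBS1L and control responses for 104 relatives of the 9 genes in 9 lists, 1 point a gene, filled where edgeR's adjusted p is under 0.05. Filled points gather in the integrated stress response list (12 of 16 at 48 h and 14 of 16 at 96 h), while most points of the other lists are open.

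Across the 12 group means of log2 CPM, UNC5B and NIBAN1 ran closest together of the 9 genes (Pearson r = 0.981), followed by UNC5B with FUT1 (0.909) and FUT1 with NIBAN1 (0.858). These coefficients describe 12 group means that share libraries and scaling, 8 of which helped to choose the genes. Among all genes with a mean of at least 1 CPM, the 2 with the most similar pattern were RAB39B (0.969) and MIA2 (0.968) for UNC5B, VEGFA (0.988) and ARHGEF2 (0.976) for FUT1, and BEX2 (0.987) and RAB39B (0.986) for NIBAN1. They were MSX2 (0.991) and INHBB (0.988) for S100A2, WBP2 (0.944) and RBMX (0.928) for IL21R, and HES4 (0.935) and ADAP2 (0.926) for SYTL1. For APLN they were ARL6IP6 (0.923) and MPC1 (0.919), for KIF21B MKNK2 (0.920) and ABCG1 (0.889), and for PIK3CG VMA21 (0.874) and RASSF3 (0.850). RAB39B was thus near both UNC5B and NIBAN1, and VEGFA, a gene of the stress list, was nearest to FUT1. PIK3CG and KIF21B had the least similar partners.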

How the data were processed

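Polyadenylated RNA of 36 libraries was sequenced in 12 groups of 3. The submitters' processing notes name build GRCh38.p13 and, with no order, edgeR, limma, featureCounts, DRAGEN and Subread; how each was set is not given in the sources used here. Deposited by the authors were expected counts per Ensembl gene, of which 45.6% above 0 were not whole, and a table of log2 CPM that lists 17138 genes and 8 of the 9 described here (not PIK3CG). Rounded counts went into edgeR 4.0.16 (R 4.3.3): filterByExpr (minimum count 10, minimum total 15), TMM scaling, a robust quasi-likelihood fit with 1 mean per group, and Benjamini-Hochberg adjustment at 0.05 over 20767 genes, which held at least 99.9% of each library's counts. The fit was run on simulated counts with the same spread for every gene, which checks the code and not the error rate in these data. CPM use TMM-scaled library sizes, so the scale depends on most genes being stable. The genes, lists and comparisons were chosen with earlier results of these data known. Genes were named by a rule: the 9, the 2 targeted genes, the list member with the smallest adjusted p under 0.05 in each HBS1L comparison, and the 2 genes most alike in pattern over the 12 group means. FGF21, PRKAR2B, ALOX5AP and LAMP3 were named after their values were seen. Alternatives were DESeq2 1.42.0, its size factors, no filter, limma 3.58.1 on the deposited log2 table, fewer groups in the fit, a replicate block and leaving out each library. Replicates of a group differed by more than sampling noise, so each counted once. Symbols were matched for 61445 of 61544 identifiers.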

Additional observations from a re-analysis of the deposited data

Results flagged for a closer look

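In the PELO line, the dox response differed between 48 h and 96 h, by edgeR's test of the difference, for UNC5B (0.86 on the log2 scale), FUT1 (1.06), NIBAN1 (1.79), SYTL1 (-1.17) and PIK3CG (1.94). Wherever 1 of these genes was called within a time, all 3 dox libraries lay on 1 side of the untreated ones. How many of all called genes do so was not counted. Of all genes tested, 48% were called in that line at 48 h and 66.8% at 96 h. All values here are log2 differences, and time cannot be told apart from the block of library numbers.

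Between the HBS1L and control lines, the dox response at 48 h differed, by the same kind of test, for VEGFA (0.60), KIF1A (0.42), S100P (1.41) and PRKAR2B (-0.21), and for the targeted gene HBS1L (-1.67). PRKAR2B, a regulatory subunit of protein kinase A and the nearest protein-coding neighbour of PIK3CG at 179371 bases, lost its call at 48 h in 8 of 12 fits without 1 library and kept it in all 12 at 96 h.

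At 96 h the response of the 2 lines differed for PHGDH (1.04), KIF1A (0.85), S100A11 (0.29), FURIN (0.26), GFUS (0.20) and FGF21 (1.98), with the larger value in the HBS1L line. It differed in the other direction for RAB27B (-0.28), INPP4B (-0.37), PRKAR2B (-0.38), STAT3 (-0.52) and HBS1L (-1.77).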

How the results depend on the processing

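In the PELO line, 368 of 375 refits of the 9 genes over all alternatives kept direction and side of the threshold, 2 lost the call (FUT1 at 48 h) and 2 gained it. The gains were KIF21B between times, -0.86 (edgeR adjusted p = 0.0386) without replicate 2 of the PELO dox group at 48 h and -0.96 (0.0061) without replicate 3 of the untreated group at 96 h. Values near 0 turned sign in 3: PIK3CG at 96 h without replicate 2 of the untreated group (-0.0123) or replicate 3 of the dox group (-0.0875; up to 0.21 in other such fits), and S100A2 between times without replicate 1 of the untreated group at 96 h (-0.0099; up to 0.21). Leaving out 1 library at a time, 7 to 8 of the 9 were called at 48 h, 7 at 96 h and 5 to 6 between times, and over all genes 9144 to 9451, 13145 to 13684 and 8108 to 8642. GFUS was also lost with DESeq2's size factors, with no filter and with fewer groups in the fit, PRKAR2B at 48 h with no filter, and S100P with limma. With limma on the deposited table, which lacks PIK3CG, 6, 7 and 4 of the genes were called. In the HBS1L comparison the genes called over the whole table ranged from 484 to 823 at 48 h and from 1391 to 2421 at 96 h with 1 library left out, and numbered 1372 at 48 h with only the 4 groups concerned in the fit (799 with all). Without replicate 1 of the control dox group, IL21R at 48 h was -0.18 (-0.46 with all), and without replicate 3 of the HBS1L dox group, PIK3CG at 96 h was -1.95 (-1.76 with all). Of 18 pairs of libraries sharing a number within a time, 0 had deviations correlated above 0.1 (lowest -0.191) and 4 correlated best with their own number, so the numbers were not used as pairs. With a replicate block, 706 and 2119 genes were called in the HBS1L comparison, 9882, 13814 and 8655 in the PELO comparisons, and 8, 7 and 5 of the 9 genes, and the block changed no call of a gene named here. Depth limits IL21R, FUT1 and FGF21 most, whose lowest libraries held few counts.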
